A study of Ocimum americanum with 4 samples.

Results

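In leaves of *O. americanum* var. *pilosum*, a chilling-sensitive basil, 227 unigenes are described here. They encode part of the autophagy machinery, proteins named for senescence, and families of proteases that include those of the plant vacuole. They were taken from the 42816 assembled unigenes by the description of their best Swiss-Prot match, which had to contain "autophagy", "senescence", "vacuolar-processing", "cysteine proteinase", "cysteine protease", "metacaspase", "subtilisin", "aspartic proteinase" or "serine carboxypeptidase". No expression value entered that choice. The rule also admits 8 inhibitors of cysteine proteinases, and many subtilases and carboxypeptidases that are known in other plants to be secreted and not vacuolar. Leaves came from untreated control plants and from plants held at 4 °C for 12 h. All plants were of the same variety and 30 days old, with 2 libraries per treatment that the study calls biological replicates, and how many plants went into a library is not given in the sources used here. Growth was at 21 °C per the labels and 22 °C per the article, which keeps the control plants at that temperature during the treatment. Neither source states at what hour leaves were collected, so cold and time of day cannot be told apart. With 2 libraries per treatment, the p-values measure only the spread between these libraries.

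Autophagy is the route by which a plant cell encloses part of its cytoplasm, or a whole organelle, in a double membrane and delivers it to the vacuole. A kinase complex starts the process, ATG9 and ATG2 bring lipid to the growing membrane, ATG18 proteins bind it, and the ubiquitin-like protein ATG8 is coupled to it by enzymes such as ATG4, ATG3 and ATG5. Inside the vacuole, proteases of several chemical classes break the cargo down, and vacuolar-processing enzymes (VPE) cut other vacuolar proteins into their mature form. In leaves, these systems are known for recycling nutrients during senescence and starvation and for some forms of programmed cell death.

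Expression is given as FPKM, fragments per kilobase of unigene scaled to the number of mapped fragments. Chilling was compared with control by limma on log2(FPKM + 1), which understates the change of low unigenes, and adjusted p-values are those of limma after Benjamini-Hochberg adjustment over the 33036 unigenes whose mean FPKM reached 1. The words higher, lower, rose and fell are used of a unigene when its adjusted p was at most 0.01 and its mean FPKM differed at least 2-fold. Of the 227 members, 194 could be tested, and the other 33 had mean FPKM of at most 0.942. After chilling 33 members were higher, 17.0% of those tested, against 11.9% of all tested unigenes. A further 19 members, 9.79%, were lower, against 13.8% of all. In both directions together 25.6% of all unigenes were called. At the adjusted p alone, without the 2-fold requirement, 73 members were higher (37.6%, against 24.6% of all unigenes) and 33 were lower (17.0%, against 23.3%). The median log2 change over the tested members was 0.20, with quartiles of -0.39 and 0.68, and that of all unigenes was 0.00. Higher calls were 63.5% of the members' calls and 46.3% of all calls. When every library was scaled to the same total, the median of all unigenes shifted to 0.15 and that of the members to 0.36, and the shares of higher calls became 71.7% and 57.9%. The counts were smaller with 3 libraries. Without control replicates 1 and 2, respectively, 22 and 26 members were higher and 10 and 9 lower, and without chilling replicates 1 and 2, 19 and 20 were higher and 12 and 11 lower.

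The share of members that rose differed with their level, taken here and for autophagy below as the mean FPKM over all 4 libraries. That mean includes the chilled values, so a change itself can move a unigene between levels. ASP1 (Ob_27335), at 8.32 FPKM in the control, was counted at 20 or more, and the subtilase Ob_35170, at 28.7 in the control, was not. Of the 53 members with a mean FPKM of 20 or more, 13 (24.5%) rose and 2 (3.77%) fell, while 9.89% and 11.2% of all unigenes at such levels did. From 5 to 20 FPKM, 11 of 70 (15.7%) rose and 7 fell, close to the 12.7% higher and 13.2% lower of all unigenes. From 1 to 5 FPKM, where all unigenes had 12.4% higher and 15.5% lower, 9 of 71 rose and 10 fell.

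**Figure D1:**
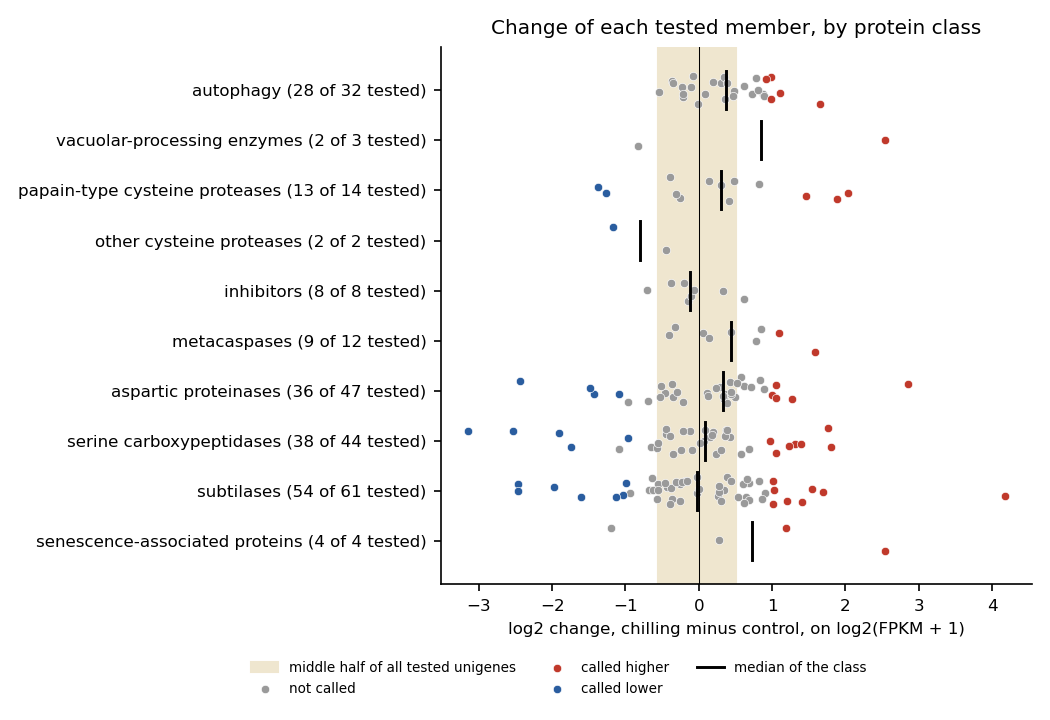
Log2(FPKM + 1) in chilling minus control for each of the 194 tested members in its protein class, with a black bar for the class median and shading between the quartiles of all tested unigenes. Medians of autophagy (0.37), metacaspases (0.44), aspartic proteinases (0.33), papain-type proteases (0.31) and the small senescence class (0.73) lie right of 0. Those of inhibitors (-0.13) and other cysteine proteases (-0.81) lie left of it. Carboxypeptidases have a median of 0.08, and the subtilases, at -0.02, spread widely to both sides. The VPE median of 0.85 lies between its 2 tested unigenes, at -0.83 and 2.54, and describes neither.

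The FPKM of all unigenes totalled 875599 and 874864 in the controls, and 773457 and 772255 after chilling. FPKM do not give the depth behind a value. For the FPKM worth of 1 read, the ratios between replicates were 1.019 (control) and 1.014 (chilling). Only pairs of low values that were nearly equal entered these medians, so they could not show a large difference in depth. The article lists fewer clean reads for the chilled libraries than for the controls. The 2 libraries of a treatment differed by a log2 SD of 0.26 (control) and 0.23 (chilling) over the tested members. Leaf mesophyll markers, 18 unigenes for chlorophyll a-b binding proteins and the small Rubisco subunit, summed to 41719.9 and 41594 FPKM in the control and to 15166 and 15153 after chilling. Fewer cells of a type and less RNA per cell cannot be told apart in such bulk samples. Markers of phloem (8 unigenes) summed to 66.0 and 70.2 FPKM against 91.1 and 90.9, those of glandular trichomes (6) to 213 and 210.2 against 244 and 245, and pollen-named ones (32) to 524 and 527 against 658 and 652. A single seed marker stayed at or under 1.00 FPKM in every library. No marker was at 0 in all libraries, and the part of any of these shifts in the members' changes was not tested.

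Of the 32 autophagy unigenes, 28 could be tested. On chilling 5 rose (17.9%, against 11.9% of all tested unigenes), whereas none fell (against 13.8%). These were ATG11, ATG2, ATG3 and a member each of the ATG8C and ATG8I type. A further 10 met the adjusted p with a smaller increase, and 1, ATG18D, met it with a decrease, so that 15 of 28 (53.6%) were higher at the adjusted p alone. Their median log2 change was 0.37, or 0.55 when libraries were scaled to the same total, where 8 rose. These counts differed with level. Among the 19 autophagy unigenes with a mean FPKM of 5 or more, 15 (78.9%) were higher at the adjusted p alone, against 34.4% of all unigenes at those levels, and the median was 0.72. The other 9, at 1 to 5 FPKM, had a median of -0.21 and none was called. Since most increases lay near 2-fold, the count of 5 moved with the libraries used, to 2 without control replicate 1, to 3 without chilling replicate 1 and to 4 without chilling replicate 2.

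Of the initiation complex, the scaffold ATG11 (Ob_34838), which in yeast and Arabidopsis links the kinase to its cargo or partners, had 8.04 and 7.83 FPKM in the control libraries and 27.59 and 26.56 after chilling. Both chilled libraries lay far above both controls, a 3.41-fold rise with a log2 change of 1.65 ± 0.07 (SE, n = 2 per group, limma adjusted p = 3.6e-06), the largest of the class. ATG101 (Ob_18648), a stabilising partner of ATG13, had 19.57 and 18.12 against 34.89 and 35.72 FPKM, a 1.87-fold difference that stayed under the 2-fold threshold. The 2 unigenes named for ATG13 itself did not follow. Ob_29472 had 8.28 and 8.78 FPKM against 9.01 and 7.93, and Ob_21879 had 4.60 and 3.81 against 4.05 and 3.77, and in both the groups overlapped. The names of ATG11, ATG13, ATG101, ATG2 and ATG9 come from fungal, frog or slime mould proteins, which were the best Swiss-Prot matches.

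Among the proteins that supply the membrane, ATG2 (Ob_32409), a lipid transfer protein, rose from 6.80 and 7.03 to 13.93 and 14.09 FPKM, just 2.03-fold. The 11 tested ATG18 unigenes, which encode phosphoinositide-binding propellers, went different ways. ATG18A (Ob_29209) had 32.10 and 32.41 FPKM against 53.12 and 54.34, and ATG18G (Ob_35565) 12.71 and 12.48 against 22.51 and 23.09, both with limma adjusted p-values of at most 6.8e-05 and folds of 1.67 and 1.81. The match of Ob_35565 to ATG18G was weak (BLASTX expectation value 6e-10), and Ob_34554, with a closer match (3e-59), differed 1.30-fold. ATG18D (Ob_18623) had 16.45 and 14.50 against 10.98 and 9.73 FPKM, and its log2 change of -0.54 ± 0.10 (SE, n = 2 per group) had a limma adjusted p of 0.0033. ATG18D was thus the only tested autophagy unigene whose groups did not overlap and were lower after chilling, while 18 did not overlap and were higher. Over all tested unigenes such shares were 40.3% lower and 41.7% higher. The lipid scramblase ATG9 (Ob_33358) had 12.25 and 10.91 against 14.62 and 16.15 FPKM and missed the threshold, with a limma adjusted p of 0.011.

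ATG8 unigenes were the most abundant of the class. One of the ATG8C type (Ob_18452) rose from 87.16 and 84.30 FPKM to 183.27 and 188.03, which is 2.17-fold with a log2 change of 1.11 ± 0.03 (SE, n = 2 per group, limma adjusted p = 3.9e-07). Its neighbour by number, Ob_18451, carries the same Swiss-Prot match and had 80.65 and 78.93 against 138.84 and 136.55 FPKM, a 1.73-fold difference (limma adjusted p = 1.6e-06). The ATG8I unigene (Ob_16313) had 70.04 and 70.28 FPKM in the control and 142.98 and 137.66 after chilling, so it just passed 2-fold, and it was no longer called without control replicate 1 (log2 change 0.99) or chilling replicate 1 (0.96). In all 3 the chilled libraries lay well above the controls. ATG3 (Ob_23918), the E2-like enzyme that transfers ATG8 to lipid, rose from 33.82 and 35.78 to 68.91 and 70.43 FPKM, and was likewise at 2.00-fold and lost its call without control replicate 1 (log2 change 0.94) or chilling replicate 2 (0.97). ATG5 (Ob_23518), which helps that transfer, had 9.47 and 9.22 against 18.79 and 17.50 FPKM, 1.94-fold. The protease ATG4 (Ob_29626), which trims ATG8 and also removes it from lipid, had 43.22 and 44.49 against 54.37 and 54.25 FPKM, 1.24-fold. A unigene matched to mouse AMBRA1 (Ob_29831), known in animals as a partner of beclin, had 27.51 and 27.81 against 29.80 and 29.37 FPKM with a limma adjusted p of 0.13.

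**Figure D2:**
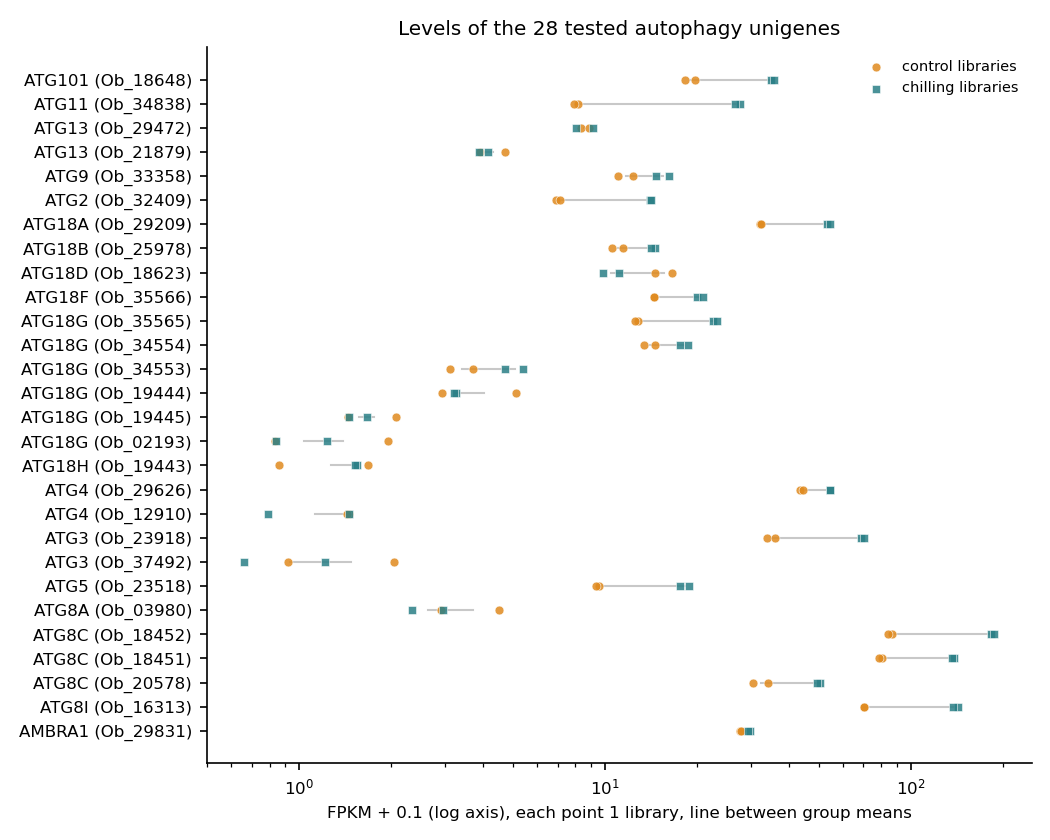
FPKM (plus 0.1, log axis) of the 28 tested autophagy unigenes in each of the 2 control and 2 chilling libraries, with 1 point per library and a line between group means. Chilled libraries lie to the right for most unigenes above about 5 FPKM, with ATG18D as an exception, while ATG13 and the unigenes below that level show no common shift.

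Genes that act upstream of autophagy were read from a list of 39 unigenes for the TOR complex, the SnRK1 energy-sensing kinase, beclin and phosphatidylinositol 3-kinase. Of its 35 tested unigenes 7 (20%) rose and 2 (5.71%) fell, against 11.9% and 13.8% of all tested unigenes. The phosphatidylinositol 3-kinase unigene (Ob_34678) rose from 10.24 and 10.23 to 20.69 and 23.95 FPKM, 2.18-fold. The increases included some regulatory subunits of SnRK1, a kinase that promotes autophagy when energy is low, while other unigenes for such subunits were not called. KING1 (Ob_29969) had 5.15 and 5.43 FPKM against 43.67 and 45.71, and KINB2 (Ob_30999) had 3.86 and 3.67 against 30.04 and 31.25, the largest changes of the list at log2 2.86 and 2.73. The beta subunit KINB1 (Ob_27595) fell from 19.83 and 18.30 to 7.91 and 9.37 FPKM, and a catalytic KIN10 unigene (Ob_28398) at 2.17 and 1.79 fell to 0.70 and 0.57. More abundant KIN10 unigenes lay higher after chilling but under 2-fold, among them Ob_31605 with 44.43 and 45.04 against 56.94 and 56.53 FPKM and Ob_30811 with 14.23 in both controls against 22.74 and 22.02. KINB1 lost its call without control replicate 1 (-1.01) or 2 (-1.12), and KIN10 without any 1 of the libraries (between -0.77 and -0.96). TOR (Ob_28662), the kinase that restrains autophagy in well-fed cells, had 21.92 and 23.41 against 42.51 and 43.78 FPKM, a log2 change of 0.90 (limma adjusted p = 1.7e-05) short of 2-fold. Beclin (Ob_28837) had 23.95 and 22.57 against 49.33 and 42.62, also short of it. Some unigenes for other subunits of the TOR complex were among the increases. RAPTOR1 (Ob_09544) rose from 2.11 and 3.73 to 8.99 and 7.18 FPKM, and LST8 (Ob_08594) from 7.32 and 7.62 to 14.64 and 15.54. More abundant unigenes of both names were not called. RAPTOR1 Ob_36841 had 13.59 and 13.91 against 13.81 and 12.27 FPKM, and LST8 Ob_25664 had 18.45 and 20.17 against 20.52 and 19.96. The counts of this list rested on all 4 libraries. Without control replicates 1 and 2, respectively, 2 and 4 rose and none fell, and without either chilling replicate 4 rose and 1 fell. With libraries scaled to the same total, 11 rose and none fell.

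Of all members, the main VPE unigene had the smallest adjusted p. VPE, also called legumain, is a cysteine endopeptidase that cuts after asparagine, and in *Arabidopsis* and tobacco it has caspase-like activity in vacuolar cell death. Ob_28840 had 74.03 and 75.19 FPKM in the control libraries and 439.60 and 440.21 in the chilled ones. The replicates nearly coincided, and the rise was 5.90-fold, with a log2 change of 2.54 ± 0.02 (SE, n = 2 per group, limma adjusted p = 4.2e-09). It was called whichever library was left out. The other members of that type were scarce. Ob_42003 had 2.94 and 3.0 FPKM against 0.92 and 1.58 with a limma adjusted p of 0.012, and Ob_42002, matched to the gamma form, stayed at 0.39 or 0.40 in every library and was not tested.

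Among the 14 papain-type cysteine proteases, 13 could be tested, 3 (23.1%) rose and 2 (15.4%) fell, against 11.9% and 13.8% of all tested unigenes. Cysteine proteinase 3 (CYP-3, Ob_28316), named after a tomato enzyme, was the most abundant of all members after chilling, with 115.54 and 114.88 FPKM in the control and 484.08 and 469.85 in the chilled libraries. That 4.14-fold rise had a log2 change of 2.04 ± 0.02 (SE, n = 2 per group, limma adjusted p = 1.1e-08). Cysteine proteinase 15A (Ob_25527), known from wilting pea shoots, rose from 50.36 and 50.69 to 140.73 and 140.77 FPKM, 2.79-fold. RD21A (Ob_05104), a dehydration-responsive protease of *Arabidopsis* vacuoles, rose from 7.92 and 8.0 to 32.43 and 31.74, 4.03-fold. These 3 were called whichever library was left out. RD19A (Ob_24676), a second dehydration-responsive enzyme, had 32.54 and 31.35 against 57.88 and 56.44 FPKM, 1.79-fold.

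Unigenes with the same papain-type match went different ways. The other RD21A unigenes, Ob_31585, Ob_28853 and Ob_07408, had log2 changes of -0.26, 0.48 and -0.39 and were not called. Their BLASTX expectation values for RD21A were at most 9e-147, whereas Ob_05104, which rose, had a weaker match at 4e-15. XCP1 and XCP2, which in *Arabidopsis* digest the contents of maturing xylem vessels, are represented by 3 unigenes. XCP2 Ob_35671 fell from 14.33 and 15.76 to 6.33 and 4.99 FPKM, but lost its call without control replicate 1 (log2 change -1.34) or control replicate 2 (-1.21). XCP2 Ob_22695 had 58.47 and 58.21 against 65.47 and 62.94, and XCP1 (Ob_21415) 45.91 and 49.39 against 62.67 and 64.53 FPKM. The lower CCP1 (Ob_37293), named after maize, had 2.41 and 1.69 FPKM against 0.00 and 0.35, and lost its call without chilling replicate 1 (-1.17) or 2 (-1.60). Without either control replicate it was too low to be tested. No decrease of the class was therefore called without either control replicate, and 1, XCP2, without either chilling replicate.

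The 8 cystatins, inhibitors of papain-type proteases, had no unigene called, although 2 were higher and 1 lower at the adjusted p alone. Ob_35385, the most abundant, had 175.20 and 171.90 FPKM against 216.22 and 221.31, 1.26-fold. Ob_16219 had 88.72 and 95.29 against 142.68 and 141.52, and Ob_11283, with the same rice match, had 22.47 and 20.81 against 13.92 and 12.00. In each of these the groups did not overlap, which also held for 41.7% (higher) and 40.3% (lower) of all tested unigenes.

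**Figure D3:**
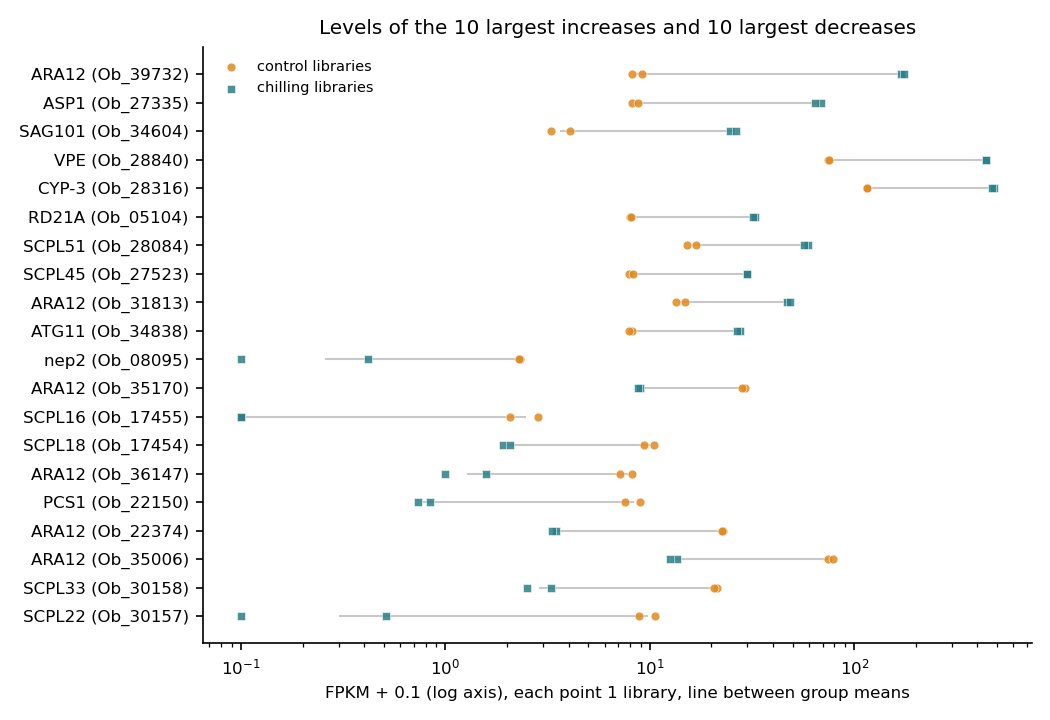
FPKM (plus 0.1, log axis) in each library of the 10 members with the largest log2 increase and the 10 with the largest decrease among those called, with 1 point per library and a line between group means. The replicate points nearly coincide for the increases, and the decreases include members that reach values under 1 FPKM after chilling, where the points of a pair lie further apart.

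Metacaspases are distant relatives of caspases that cut after arginine or lysine. Of their 12 unigenes 9 were tested and 2 (22.2%, against 11.9% of all tested unigenes) rose, with a median log2 change of 0.44. AMC9 (Ob_24019), which in *Arabidopsis* acts in dying xylem cells, rose from 3.73 and 3.07 to 8.10 and 8.60 FPKM, 2.46-fold, and it lost its call without control replicate 2 (log2 change 0.98), chilling replicate 1 (1.13) or chilling replicate 2 (1.05). An AMC5 unigene (Ob_11278), listed at 0 in either control, had 2.02 and 1.99 FPKM after chilling (limma adjusted p = 7.5e-04). Its mean of 1.00 FPKM reached the filter only through the chilled libraries, so it could be tested only as an increase. It was too low to be tested without either chilling replicate, so that no metacaspase was called then, and 1 was called without control replicate 2. The most abundant one, AMC4 (Ob_36677), had 71.39 and 76.86 against 59.15 and 58.36 FPKM, a difference of -0.33 on the log2 scale that met the adjusted p but not 2-fold. The 4 tested unigenes matched to AMC1, a positive regulator of cell death in *Arabidopsis* immunity, were not called.

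The calpain DEK1, a membrane protein needed for the epidermis, is represented by 2 unigenes. Ob_35562 had 29.36 and 32.99 FPKM against 21.92 and 23.39, with a log2 change of -0.44 that was not called. The scarce Ob_03705 fell from 3.18 and 3.12 to 0.77 and 0.91 FPKM, but this call was lost when any of the libraries was left out, with log2 changes between -1.12 and -1.23.

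Of 47 aspartic proteinase unigenes 36 were tested, and 5 (13.9%) rose and 4 (11.1%) fell, near the 11.9% and 13.8% of all tested unigenes. ASP1 (Ob_27335), named after a rice enzyme, had 8.04 and 8.60 FPKM in the control and 68.62 and 64.16 after chilling, a 7.98-fold rise with a log2 change of 2.85 ± 0.06 (SE, n = 2 per group, limma adjusted p = 1.9e-07). CDR1 (Ob_13096), a secreted enzyme that promotes disease resistance in *Arabidopsis*, had 0.75 and 0.74 against 3.23 and 3.18 FPKM, and its call was lost when any of the libraries was left out (log2 changes of 1.26 to 1.28). The remaining increases were in unigenes matched to *Arabidopsis* proteins named by locus only. Ob_32482 rose from 6.59 and 7.07 to 16.04 and 14.73, Ob_33025 from 4.53 and 4.92 to 11.41 and 10.37, and Ob_31899 from 9.67 and 8.95 to 19.53 and 19.81 FPKM. Ob_33025 lost its call without control replicate 1 (1.00), chilling replicate 1 (0.99) or chilling replicate 2 (1.12). The most abundant member, RAP (Ob_31676), which matches a vacuolar-type rice enzyme, had 195.41 and 192.22 against 168.29 and 164.46 FPKM, only 1.16-fold lower.

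The decreases among aspartic proteinases were mainly of 1 name. PCS1, which in *Arabidopsis* protects reproductive tissues and embryos from cell death, matched 5 unigenes, of which 4 were tested and 3 fell. Ob_22150 had 7.43 and 8.88 FPKM against 0.63 and 0.74, a log2 change of -2.44 ± 0.17 (SE, n = 2 per group, limma adjusted p = 3.2e-05). Ob_22149 had 4.25 in both controls against 1.00 and 0.91, and Ob_15573 had 4.28 and 5.40 against 1.45 and 2.04. The fourth tested unigene, Ob_26066, had the highest mean level of the 5 and differed the other way, with 7.01 and 7.56 FPKM against 11.03 and 10.45 (1.47-fold, limma adjusted p = 0.0039), and was not called. Ob_15573 lost its call whichever library was left out (log2 changes between -0.94 and -1.25), and Ob_22149 without chilling replicate 1 (-1.46) or 2 (-1.39). The fourth decrease, in a unigene matched to the pitcher plant digestive enzyme nepenthesin-2 (nep2, Ob_08095), was from 2.22 and 2.18 to 0.32 and 0.00 FPKM, not called without chilling replicate 2 (-1.28). All 4 decreases were of unigenes with a mean FPKM under 5, and 2 aspartic proteinases fell without control replicate 1, control replicate 2 or chilling replicate 1, and 1 without chilling replicate 2. The increases numbered 3 without either chilling replicate.

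Serine carboxypeptidases remove amino acids from the carboxyl end of proteins, and some relatives in *Arabidopsis* have become acyltransferases of secondary metabolism. Of 44 unigenes 38 were tested, 7 (18.4%) rose and 5 (13.2%) fell, against 11.9% and 13.8% of all tested unigenes. SCPL51 (Ob_28084) rose from 15.09 and 16.80 to 59.13 and 56.53 FPKM, 3.63-fold with a log2 change of 1.80 ± 0.06 (SE, n = 2 per group, limma adjusted p = 1.6e-06). SCPL45 (Ob_27523) rose similarly, from 7.83 and 8.18 to 29.78 and 29.76. The other unigenes with that match were not called, and the most abundant, Ob_30372, had 49.49 and 50.10 against 35.83 and 36.59 FPKM (log2 change -0.45, limma adjusted p = 1.2e-04). SCPL24, also known as BRS1 for its role in brassinosteroid signalling, matched Ob_28358, which rose from 11.53 and 11.61 to 23.50 and 23.74 FPKM. It also matched the most abundant member, Ob_22029, with 77.82 and 79.19 against 102.13 and 101.89, 1.30-fold. The other increases were of unigenes under 8 FPKM. SCPL28 (Ob_06393) had 0.54 and 0.27 against 3.60 and 1.91, and SCPL20 (Ob_02075) had 0.60 and 2.06 against 4.88 and 4.21 FPKM. The more abundant SCPL20 unigenes, Ob_27881 and Ob_30265, had log2 changes of -0.24 and -0.57 and were not called. SCPL28 lost its call without control replicate 1 (log2 change 1.53), control replicate 2 (1.25) or chilling replicate 2 (1.72), and SCPL20 without control replicate 1 (0.86), chilling replicate 1 (1.24) or chilling replicate 2 (1.41).

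The decreases of this class reached further. SCPL22 (Ob_30157) had 10.47 and 8.70 FPKM in the control against 0.41 and 0.00, the largest decrease of any member at a log2 change of -3.15 ± 0.22 (SE, n = 2 per group, limma adjusted p = 3.7e-05). Its neighbour by number, SCPL33 (Ob_30158), fell from 21.11 and 20.53 to 3.19 and 2.41 FPKM, 7.44-fold. SCPL18 (Ob_17454) fell from 9.21 and 10.40 to 1.81 and 1.98, and the adjacent SCPL16 (Ob_17455) from 1.98 and 2.72 to 0 in both chilled libraries, a call lost without either of these (log2 change -1.74 each time). Another SCPL18 unigene, Ob_21963, rose from 2.56 and 3.57 to 7.27 and 7.38, and the 4 tested SCPL40 unigenes also differed. Ob_11165 rose from 1.07 and 0.75 to 3.57 and 3.36 FPKM, Ob_19461 fell from 21.57 and 22.42 to 10.38 and 11.27, the most abundant Ob_28217 had 25.07 and 24.72 against 40.15 and 40.91 (1.63-fold, limma adjusted p = 3.3e-05) and was not called, and Ob_28218 stayed under 3 FPKM. Without control replicate 1 or either chilling replicate only 3 carboxypeptidases rose, and 3 fell without control replicate 2 or chilling replicate 1.

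Subtilases are serine proteases, mostly of the cell wall. This largest class had 61 members, 54 tested, 8 higher and 7 lower, and a median log2 change of -0.02. The largest rise of any member was in it. Ob_39732, matched to ARA12, an *Arabidopsis* subtilase known for releasing seed mucilage, had 9.07 and 8.12 FPKM in the control and 169.60 and 175.45 after chilling. This was 20.1-fold, with a log2 change of 4.18 ± 0.06 (SE, n = 2 per group, limma adjusted p = 2.8e-08), and was called whichever library was left out. A second ARA12 unigene, Ob_31813, rose from 14.69 and 13.26 to 46.61 and 48.51 FPKM. Of unigenes matched to AIR3, an auxin-induced subtilase of lateral root formation, 3 of 9 tested (33.3%) rose, against 11.9% of all. Ob_36600 went from 24.53 and 23.57 to 71.77 and 71.51 FPKM, while Ob_16750 had 0.00 and 0.26 against 1.62 and 2.40 and Ob_15064 had 2.95 and 1.74 against 6.60 and 6.5. The call of Ob_16750 was lost without control replicate 1 (log2 change 1.24) or 2 (1.58). A unigene of the SBT5.4 type, Ob_18796, rose from 32.29 and 27.25 to 61.00 and 60.77. Its neighbour Ob_18795, with 38.25 and 36.66 against 70.31 and 71.17, stayed at 1.89-fold. Both matched SBT5.4 only weakly, with BLASTX expectation values of 1e-06 (Ob_18796) and 6e-07 (Ob_18795).

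All 7 decreases were in ARA12-matched unigenes. Ob_35006, the most abundant of them in the control, fell from 73.85 and 78.48 to 13.51 and 12.39 FPKM, 5.88-fold with a log2 change of -2.47 ± 0.06 (SE, n = 2 per group, limma adjusted p = 3.0e-07). Ob_22374 fell from 22.77 and 22.36 to 3.36 and 3.22, and Ob_35170 from 29.21 and 28.28 to 8.83 and 8.65. Ob_36147 fell from 7.07 and 8.10 to 0.90 and 1.47 FPKM, and lost its call without control replicate 1 (-2.07) or 2 (-1.90). Of the 31 unigenes with this match 29 were tested. Among these 4 (13.8%) rose and 7 (24.1%) fell, against 11.9% and 13.8% of all tested unigenes. The groups did not overlap for 9 that were higher and 17 that were lower. Over all tested unigenes, 41.7% did not overlap and were higher and 40.3% did not overlap and were lower. Their FPKM summed to 498 and 494 in the controls, against 550.4 and 555 after chilling. Without Ob_39732 the sums were 489 and 486 against 381 and 379, so that 1 unigene turned the direction of the sum. Unigenes with the same match can be paralogs or fragments of the same transcript, and how reads were divided among them is not visible in FPKM. Over the class, 5 and 3 rose without control replicates 1 and 2 and 4 without either chilling replicate, and 4 fell without either control replicate.

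**Figure D4:**
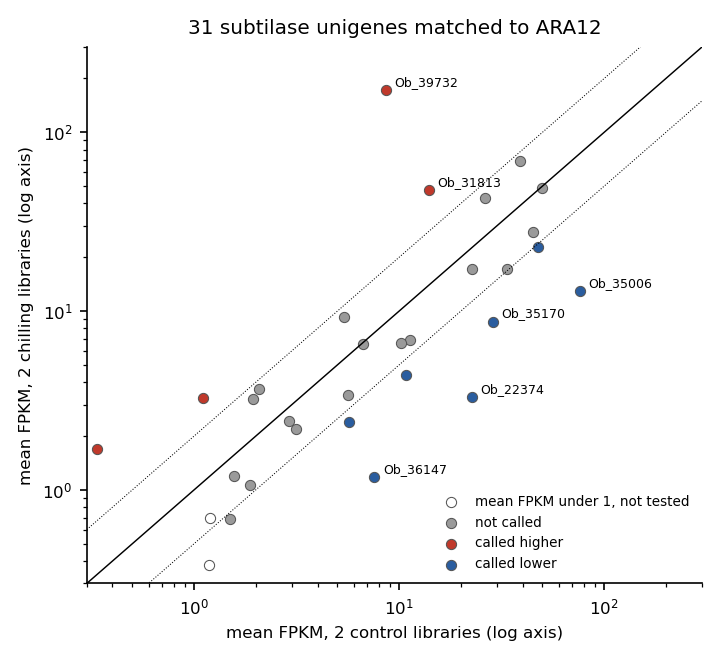
Mean FPKM in the 2 chilling libraries against the mean in the 2 control libraries, both on log axes, for the 31 subtilase unigenes matched to ARA12, with a solid line for equal levels and dotted lines for 2-fold differences. Ob_39732 stands far above the line at 173 FPKM after chilling, and Ob_35006, Ob_35170 and Ob_22374 lie well below it.

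The proteins named for senescence were 4 unigenes. SAG101, an acyl hydrolase that rises in ageing *Arabidopsis* leaves and also partners EDS1 in immunity, matched 3 of them, and the order of their response was the reverse of the order of their control levels. The scarcest, Ob_34604, rose from 3.97 and 3.17 to 24.58 and 26.34 FPKM, 7.13-fold with a log2 change of 2.54 ± 0.11 (SE, n = 2 per group, limma adjusted p = 4.4e-06). Ob_28284 rose from 11.06 and 9.94 to 24.16 and 26.28, 2.40-fold. Ob_28101 had 32.76 and 32.67 against 39.92 and 39.51 FPKM, 1.21-fold and not called. The match to SAG101 was weakest for Ob_34604, with a BLASTX expectation value of 1e-13, against 5e-25 (Ob_28284) and 7e-29 (Ob_28101). Both increases were called whichever library was left out. The receptor-like kinase SIRK (Ob_39969), named for its induction in senescence, had 2.57 and 1.26 against 0.52 and 0.00 and was not called (limma adjusted p = 0.016).

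A separate list of 28 unigenes for leaf senescence regulators and chlorophyll breakdown had 26 tested. Of these 10 (38.5%) rose and 6 (23.1%) fell, against 11.9% and 13.8% of all tested unigenes. WRKY53 (Ob_26551), a transcription factor that promotes senescence in *Arabidopsis*, rose from 2.27 and 1.76 to 151.62 and 153.99 FPKM, and a chlorophyllase unigene, CLH2 (Ob_17664), rose from 0.76 and 0.75 to 37.07 and 34.69. Pheophytinase (PPH), the enzyme that removes the phytol chain during senescence, matched unigenes in both directions. Ob_28605 fell from 65.54 and 66.01 to 15.90 and 15.99 FPKM and Ob_24692 from 33.63 and 31.44 to 7.42 and 8.05, whereas Ob_34435 rose from 11.31 and 9.77 to 55.74 and 56.37. The STAY-GREEN-like protein SGRL (Ob_27587) fell from 232.66 and 232.35 to 48.27 and 42.55. Unigenes of the list, those matched to PPH among them, were therefore found among both the increases and the decreases. Their roles in *Ocimum* are inferred from the names of their matches and were not tested.

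Summed over all members, FPKM went from 3478 and 3490.1 in the control to 5264 and 5224 after chilling, that is from 0.397% and 0.399% to 0.681% and 0.677% of the total FPKM of each library. The sum rose 1.51-fold, from 3484 ± 8.73 to 5244 ± 27.6 (SD, n = 2), and 1.42-fold without CYP-3. The classes contributed unequally. Papain-type proteases went from 353 to 863 FPKM, of which CYP-3 alone made up 48.7% over the libraries, and autophagy from 561 to 947. VPE went from 78.0 to 442, nearly all of it in Ob_28840. Subtilases had 723 against 925, a 1.28-fold difference that was 1.05-fold without Ob_39732. Carboxypeptidases had 706 against 773, aspartic proteinases 559 against 680.4, and inhibitors 319 against 402. The metacaspases, at 102 and 98.0, differed by less than the spread between their control libraries, but AMC4 alone held 66.4% of that sum and the others together were 1.4-fold higher after chilling.

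**Figure D5:**
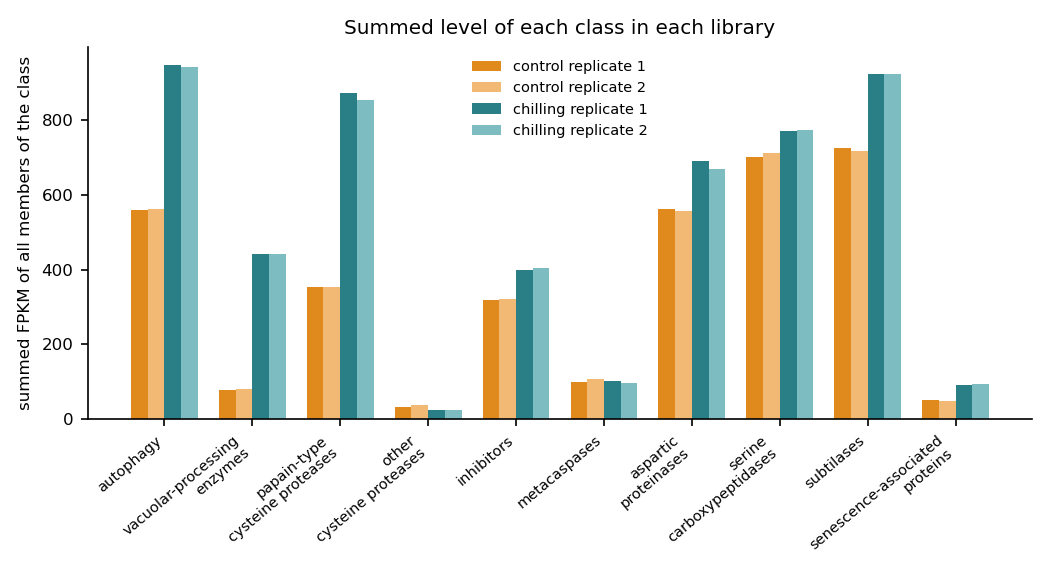
Summed FPKM of all members of each class in each of the 4 libraries, with 1 bar per library. The bars of the 2 chilling libraries stand above those of the controls for autophagy (947 against 561), VPE (442 against 78.0) and papain-type proteases (863 against 353), while those of the metacaspases are level.

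Related lists of unigenes outside the 227 showed both directions. Among 25 tested further vacuolar or lysosomal proteases 4 rose and 5 fell. The cathepsin B unigene (Ob_24604), with 158.85 and 154.01 FPKM against 316.91 and 319.65, and oryzain alpha (Ob_32137), with 67.10 and 71.14 against 186.69 and 184.00, rose like the papain-type members. Unigenes matched to the aspartic proteases ASPG1 and ASPG2, known from guard cells, made up all 5 decreases and the other 2 increases. They were listed by the words "aspartic protease", and whether they are vacuolar was not tested. ASPG2 (Ob_28847) fell from 24.26 and 23.37 to 5.58 and 4.95 FPKM, while ASPG1 (Ob_27977) rose from 16.22 and 16.54 to 38.06 and 37.20. Of 82 tested unigenes for the vacuolar membrane and its sorting receptors, 3 (3.66%) rose and 15 (18.3%) fell. The tonoplast aquaporins TIP2-2 (Ob_18970), from 238.06 and 237.72 to 26.76 and 25.74, and TIP2-1 (Ob_18969), from 140.79 and 136.08 to 15.03 and 15.27 FPKM, led the decreases. With any library left out, 5 or 6 of this list fell and at most 2 rose. Among 10 tested inhibitors of other proteases 3 rose and 2 fell, or 2 and 1 without any 1 of the libraries.

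The autophagy pathway of KEGG (ko04140), which here holds 53 unigenes and shares 12 with the members, had 7 higher and 5 lower of 50 tested, and without control replicate 1 it had 2 and 3. With all 4 libraries 14% were higher and 10% lower, against 11.9% and 13.8% of all tested unigenes. Many unigenes of the pathway are CBL-interacting kinases and not autophagy proteins. All 5 decreases were of such kinases or of the KIN10 unigene named above. The increases were the called ATG8C, ATG8I and ATG3 members, phosphatidylinositol 3-kinase (Ob_34678), ATG7 (Ob_25962) and the U-box proteins PUB38 and PUB44. ATG7 rose from 10.35 and 10.81 to 20.61 and 22.53 FPKM, 2.04-fold. In the KEGG lysosome pathway (ko04142) 10 of 78 tested (12.8%) rose and 2 (2.56%) fell.

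The members also differed by the species of their closest nr match. For 39 members (17.2%) this was a grass, although *Ocimum* belongs to the mint family, and of the 22 that could be tested none rose and 1, CCP1, fell, with a median log2 change of -0.36. SIRK and both scarce VPE unigenes were also among the 39. Whether these unigenes come from *Ocimum* itself was not tested. Among all unigenes with a grass match the median was -0.48, and 3.62% of those tested rose and 15.3% fell. The 172 tested members with another match held all 33 increases and 18 decreases and had a median of 0.31, against 0.03 for all unigenes of that kind.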

How the data were processed

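RNA-seq reads were trimmed and assembled de novo by the authors, who kept 1 unigene per gene, annotated it by BLASTX (expectation value 1e-05) and deposited FPKM from RSEM, rounded to 2 decimals. FPKM are not counts, so count models were not run, and they do not show how many reads lie behind a value. The article gives clean reads per library. The authors' lists of regulated genes (log2 fold change, p-value, FDR, from edgeR) were not used, nor were their 8 columns that repeat FPKM.

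Members follow 9 words in Swiss-Prot descriptions and fall into 10 classes. Log2(FPKM + 1) was fitted with limma 3.58.1 (R 4.3.3, trended prior variance) for unigenes with mean FPKM of at least 1 (2 residual and 4.413 prior degrees of freedom), and tested on simulated data. Tables were handled in Python 3.11.15 with pandas 2.3.3, numpy 2.4.6 and matplotlib 3.10.9. Named members are the 10 largest called changes per direction, up to 4 called per direction and the most abundant in each class, and in each of 5 related lists up to 2 called per direction. Others (such as uncalled autophagy unigenes, TOR, cathepsin B and members that share a match) were chosen after their values were seen. Members, classes and lists were chosen with earlier results of these data known. Alternatives were other pseudocounts, filters, scalings and thresholds, a replicate block, no trend, and leaving out each library. With 2 libraries per group, an exact permutation test cannot go below p = 0.333.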

Additional observations from a re-analysis of the deposited data

How the results depend on the processing

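Counts of members called higher lay between 30 and 43, against 33, under a pseudocount of 0.1, no filter, TPM or median-ratio scaling, no trend, an adjusted p of 0.05 and a replicate block, and fell to 24 when a mean FPKM of at least 5 was required. Members called lower lay between 17 and 24, against 19, and fell to 10 with a mean FPKM of at least 5, where fewer unigenes are tested. With 1 library left out, 19 to 26 members were higher and 9 to 12 lower. The lone library of a group is then assumed to vary like the other group, and 1 residual degree of freedom is left. Of 39 called members among those named by rule, 23 kept their call under every alternative that tested them, 16 lost it under at least 1 and none reversed. The numbers do not pair the libraries, since deviations of same-numbered libraries had a correlation of 0.0076. A replicate block gave 31 higher and 19 lower members. Over all unigenes it gave 3576 and 4102, against 3917 and 4548, and with a library left out 1748 to 2425 were higher and 2251 to 2355 lower. Calls near 2-fold (ATG8I, ATG3) and those of members under 5 FPKM depended most on single libraries. FPKM hide how many reads lie behind a value, and 13 called members had a group mean under 1 FPKM. Those 13 passed the filter on mean FPKM only through the group in which they were higher.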
